A study of Mus musculus with 6 samples.

Results

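The 10 genes described here encode the machinery that places the histone variant H3.3 into chromatin and the histone variants themselves. They are Hira, Ubn1, Cabin1, Asf1a, Daxx, Atrx, H3f3a, H3f3b, H2afz and H2afv, chosen by symbol from 24062 genes listed in the count data, and all 10 passed the filter on low counts that left 13185 genes for testing. RNA was measured by sequencing in NIH3T3 cells, an established mouse embryonic fibroblast line, in 6 libraries. The series asks how SPT6 (gene symbol Supt6), a transcription elongation factor and histone chaperone, bears on transcription stimulated by interferon.

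Every library came from cells transfected with an siRNA, either a negative control (NC, called control below) or one against SPT6, for 48 h. Cells were then left untreated, or received mouse recombinant interferon beta (IFN-beta), 100 units/ml, during 4 h. The groups were control siRNA untreated (1 library), SPT6 siRNA untreated (1 library), control siRNA with IFN-beta (2 libraries) and SPT6 siRNA with IFN-beta (2 libraries). A single siRNA product against SPT6 was used, in a single cell line. Whether replicates are separate cultures is not in the labels. All p-values therefore reflect the spread among these libraries alone, which may be technical.

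Most histone H3 is made in S phase and is packed into DNA as it is copied, whereas H3.3 is made throughout the cell cycle and replaces H3 where transcription has removed nucleosomes. The HIRA complex, of Hira, Ubn1 and Cabin1, receives H3.3 with H4 from Asf1a and deposits it at active genes, interferon-stimulated genes in fibroblasts among them. Daxx, with the chromatin remodeller Atrx, is a separate H3.3 chaperone that acts at telomeres, pericentric repeats and silenced retroviral sequence, and resides in PML nuclear bodies. H2A.Z, encoded by H2afz and H2afv, is a variant of H2A found beside transcription start sites.

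Counts in genes ran from 7935961 to 17596498 per library. Values below are CPM, counts scaled by library size and TMM factors. The targeted gene Supt6 had 175 CPM in the untreated control library and 177 and 189 CPM in the control libraries with IFN-beta. In the SPT6 siRNA libraries it had 101 CPM before and 108 and 88.3 CPM after IFN-beta, so none of them reached a control library. The fitted log2 difference of Supt6 with IFN-beta was -0.90 ± 0.18 (SE), with an adjusted p of 0.247 in edgeR's quasi-likelihood test with Benjamini-Hochberg adjustment. That fit called 0 of 13185 genes (0%) at an adjusted p under 0.05 between the siRNAs, while 1538 genes had an unadjusted p under 0.05 and DESeq2 called 62. The 9 fibroblast markers summed to 17000 to 19450 CPM in control libraries and 12700 to 14690 CPM in SPT6 siRNA libraries. Epithelial markers summed to 0.246 to 0.602 CPM with control siRNA and 0.815 to 0.956 CPM with SPT6 siRNA, with 2 of 6 at 0 in every library. Endothelial markers summed to 0.949 to 1.48 CPM with control siRNA and 2.14 to 4.96 CPM with SPT6 siRNA, and macrophage and leukocyte markers to 3.68 to 5.79 and 9.71 to 13.3 CPM. Mostly single genes made these sums: Vwf had 4.09 of 4.96 CPM and Cd68 9.91 of 13.3 CPM in SPT6 siRNA IFN-beta replicate 2, where Lyz2 was at 0, and Ptprc was at most 0.24 CPM in any library. Their part in the results was not tested. In whole-culture RNA, fewer cells of a kind and less RNA per cell cannot be told apart.

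Among the 10 genes, Daxx had by far the widest range across the libraries in log2 CPM. It lies on chromosome 17 from 33909414 to 33915590 (plus strand, GRCm38; protein coding). In untreated cells the control library had 24.7 CPM (301 counts) and the SPT6 siRNA library 15.6 CPM (130 counts). With IFN-beta Daxx was at 118 and 98.6 CPM with control siRNA, a mean of 108.5 ± 14.0 CPM (SD, n = 2). With IFN-beta and SPT6 siRNA it was at 71.1 and 53.4 CPM, a mean of 62.3 ± 12.6 CPM (SD, n = 2). All 4 IFN-beta libraries lay above both untreated libraries, and the SPT6 siRNA library lay below the control library in the untreated pair and in both IFN-beta pairs. The titles place the untreated libraries at 0 h, so IFN-beta and the 4 h that passed with it cannot be told apart. The siRNA groups with IFN-beta did not overlap, which held for 44% of all genes (21.3% with SPT6 siRNA lower).

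**Figure D1:**
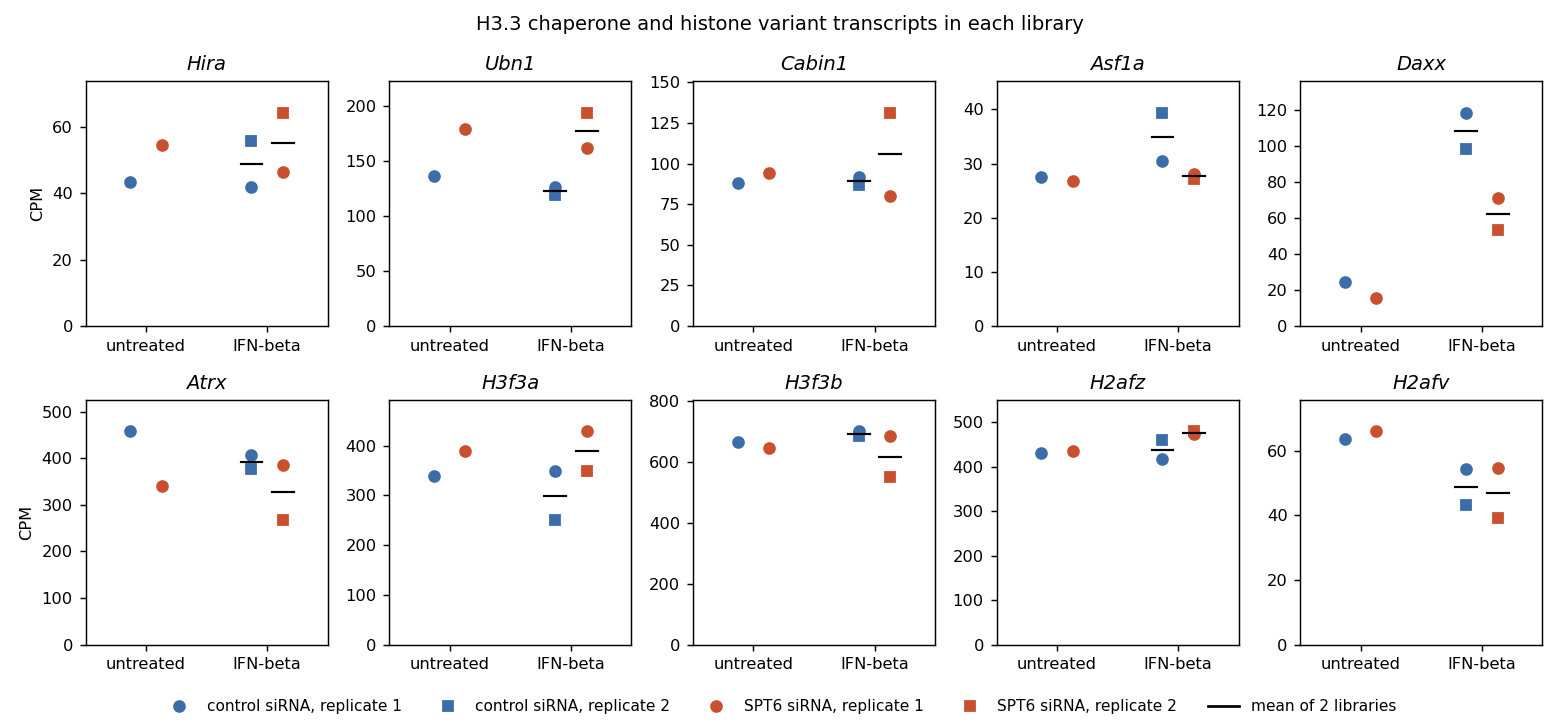
Level of each of the 10 genes in CPM (linear axes from 0) in every library. Circles are replicate 1 and squares replicate 2, blue is control siRNA and red SPT6 siRNA, and bars are means of 2 libraries. Daxx is the gene whose 4 IFN-beta libraries (53.4 to 118 CPM) stand far above the untreated ones (15.6 and 24.7 CPM).

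The fitted level of Daxx with IFN-beta was 4.39-fold that of untreated cells with control siRNA, a log2 difference of 2.13 ± 0.29 (SE). It ranked 27 of 13185 genes by p, with an unadjusted p of 0.000202 and an adjusted p of 0.0984 in edgeR's test, which called 0.137% of genes. None of the 10 genes was called, and Daxx alone had an unadjusted p under 0.05 (1 of 10, against 8.24% of all genes in either direction and 5.29% higher). With SPT6 siRNA the fitted level was 3.99-fold that of untreated cells, a log2 difference of 2.0 ± 0.30 (SE), with an adjusted p of 0.174 in edgeR's test. That comparison called 0.0455% of genes and gave Daxx rank 25. Again Daxx was the only member of the 10 with an unadjusted p under 0.05, against 5.85% of all genes in either direction and 3.84% higher.

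The adjusted p of Daxx depended on the method, and values under a replicate block are given further below. DESeq2 called it higher with IFN-beta in both responses, with adjusted p-values of 6.44e-08 (control siRNA) and 4.51e-06 (SPT6 siRNA), and called 1.55% and 0.978% of genes. Without a filter on low counts edgeR also called Daxx in both responses, with adjusted p-values of 0.00178 and 0.00538, against 0.434% and 0.259% of genes. For control siRNA, leaving out SPT6 siRNA IFN-beta replicate 1 or replicate 2 brought the adjusted p in edgeR's test to 0.0444 or 0.0452. Over the alternatives with the same 4 group means the adjusted p ran from 6.44e-08 to 0.162 with control siRNA and from 4.51e-06 to 0.385 with SPT6 siRNA, and the log2 difference itself never left 1.99 to 2.26 and 1.77 to 2.17 when a library was left out.

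The SPT6 siRNA group lay at 0.574 of the control group in fitted Daxx level with IFN-beta, a log2 difference of -0.80 ± 0.21 (SE). The unadjusted p was 0.00774 and the adjusted p 0.327 in edgeR's test. The adjusted p ran from 0.129 to 0.829 over the alternatives with the same group means. A replicate block, a pairing that the labels do not state, gave an adjusted p of 7.74e-07 in edgeR's test and called 20% of all genes. In log2 CPM, SPT6 siRNA differed from control by -0.66 in the untreated pair and by -0.73 and -0.88 in IFN-beta replicates 1 and 2. The untreated comparison, 1 library against 1, has no replicate check. In it Daxx was the only member of the 10 to differ by 1.5-fold or more, against 14.9% of all genes in either direction and 6.32% lower.

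The IFN-beta responses of Daxx with the 2 siRNAs lay closer together than their error. In log2 CPM relative to the untreated library with the same siRNA it was 2.25 and 1.99 in control cells and 2.18 and 1.77 in SPT6 siRNA cells, and these ranges overlapped. The fitted difference between the responses was -0.14 ± 0.38 (SE), with an unadjusted p of 0.733 and an adjusted p of 1 in edgeR's test, which called 0% of genes. Its sign turned to 0.02 without control siRNA IFN-beta replicate 1 and to 0.03 without SPT6 siRNA IFN-beta replicate 2. An SE of that size leaves room for sizeable differences either way, so the responses are not shown to be equal.

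The stretch before the start of Daxx is shown because Daxx was the member whose level differed most with IFN-beta. RefSeq (GRCm38.p6) gives 3 start windows for Daxx, and the bases between its first exon and the nearest annotated exon upstream, chr17:33909318-33909413 on the plus strand, read 5′ to 3′ as follows.
Daxx: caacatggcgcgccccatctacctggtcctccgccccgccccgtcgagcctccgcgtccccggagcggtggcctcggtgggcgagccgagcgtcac
The stretch is rich in G and C. The core of the interferon-stimulated response element, GAAA and GAAA with any 2 bases between them on either strand, was not in the 250 bases before any of the 3 Daxx starts, nor before those of the other 9 genes (0 of 10), against 2.98% of all RefSeq windows of that length. All 3 Daxx starts lie inside the gene span given above, so part of each window searched lies inside the gene. These letters being absent from a window says nothing of sites elsewhere.

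Pml, which builds the nuclear bodies in which Daxx resides, and Sp100, another resident of those bodies, were read beside it. Pml had 38.2 CPM (control) and 37.3 CPM (SPT6 siRNA) in untreated cells, and 107 and 100.2 CPM (control) and 69.8 and 75.1 CPM (SPT6 siRNA) with IFN-beta. Its groups with IFN-beta did not overlap, with a log2 difference between siRNAs of -0.52 ± 0.17 (SE) and an adjusted p of 0.361 in edgeR's test. Unlike Daxx, the untreated pair of Pml lay close together. Sp100, named after its values were seen, had 7.72 CPM (control) and 7.31 CPM (SPT6 siRNA) untreated, and 104.5 and 43.1 CPM (control) and 75.8 and 24.9 CPM (SPT6 siRNA) with IFN-beta. Its replicates were so far apart that the siRNA groups overlapped.

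Atrx, the ATP-dependent remodeller that partners Daxx, did not share its pattern. The gene lies on the X chromosome from 105797615 to 105929403 (minus strand). The control libraries had 458 CPM before and 407 and 378 CPM after IFN-beta, and the SPT6 siRNA libraries 340.3 CPM before and 386 and 268.5 CPM after it. The SPT6 siRNA library was the lower one in each pair, yet the IFN-beta groups overlapped because SPT6 siRNA replicate 1 lay above control replicate 2. The log2 difference between siRNAs with IFN-beta was -0.26 ± 0.22 (SE), with an adjusted p of 0.679 in edgeR's test. It was -0.56 when SPT6 siRNA IFN-beta replicate 1 was left out and -0.03 when replicate 2 was. With IFN-beta the log2 difference from untreated cells was -0.22 ± 0.27 (SE) with control siRNA and -0.06 ± 0.27 (SE) with SPT6 siRNA.

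The 3 subunits of the HIRA complex were each higher on average with SPT6 siRNA, and only Ubn1 held that order in every library. Ubn1, the ubinuclein subunit that binds H3.3 directly, lies on chromosome 16 from 5050057 to 5086289 (plus strand). The control libraries had 137 CPM before and 127 and 119 CPM after IFN-beta (mean of the latter 123 ± 5.35 CPM, SD, n = 2). The SPT6 siRNA libraries had 179.5 CPM before and 162 and 194 CPM after IFN-beta (178 ± 22.5 CPM, SD, n = 2). Every SPT6 siRNA library lay above every control library, an order whose share over all genes was not counted. SPT6 siRNA was above control in all 3 pairs for 25.8% of all genes. The IFN-beta groups were apart with SPT6 siRNA higher for 22.7%. The fitted level was 1.45-fold higher with SPT6 siRNA under IFN-beta, a log2 difference of 0.53 ± 0.17 (SE), with an unadjusted p of 0.0176 and an adjusted p of 0.359 in edgeR's test. Without SPT6 siRNA IFN-beta replicate 2 the log2 difference was 0.39. Under a replicate block, a pairing that the labels do not state, the adjusted p in edgeR's test was 0.00307, and 20% of all genes were called.

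Hira, the scaffold of the complex, lies on chromosome 16 from 18877037 to 18970309 (plus strand). In untreated cells the control library had 43.5 CPM and the SPT6 siRNA library 54.5 CPM. After IFN-beta the control libraries had 42.0 and 55.8 CPM and the SPT6 siRNA libraries 46.4 and 64.2 CPM. Replicate 2 was the higher one with either siRNA, by 0.41 and 0.47 in log2 CPM, and the siRNA groups overlapped. Within each pair the SPT6 siRNA library was the higher one, by 0.33 untreated and by 0.14 and 0.20 with IFN-beta in log2 CPM. The fitted log2 difference between siRNAs was 0.18 ± 0.24 (SE), with an adjusted p of 0.808 in edgeR's test, and it turned to -0.08 without SPT6 siRNA IFN-beta replicate 2. Exons of Hira share 2778 bases with the gene model Gm28539 on the same strand, which may affect its count.

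Cabin1, the subunit that also binds calcineurin, lies on chromosome 10 from 75646112 to 75764341 (minus strand). Untreated cells gave 88.2 CPM (control) and 94.0 CPM (SPT6 siRNA). IFN-beta-treated cells gave 91.6 and 86.7 CPM (control) and 80.1 and 131 CPM (SPT6 siRNA). The SPT6 siRNA libraries thus lay on both sides of the control libraries, 0.71 apart in log2 CPM. The log2 difference of 0.25 ± 0.25 (SE) had an adjusted p of 0.738 in edgeR's test, and it turned to -0.16 without SPT6 siRNA IFN-beta replicate 2.

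Asf1a, which hands H3.3 and H4 to the HIRA complex, lies on chromosome 10 from 53596757 to 53609225 (plus strand). The untreated libraries held 27.5 CPM (control) and 26.8 CPM (SPT6 siRNA). The libraries after IFN-beta held 30.6 and 39.3 CPM (control) and 28.0 and 27.2 CPM (SPT6 siRNA). The 3 SPT6 siRNA libraries lay between 26.8 and 28.0 CPM, and the spread came from the control libraries. The log2 difference between siRNAs with IFN-beta was -0.34 ± 0.20 (SE), with an adjusted p of 0.546 in edgeR's test, although the groups did not overlap. It was -0.15 without control siRNA IFN-beta replicate 2. Asf1a shares 1748 of its 3638 merged exon bases with Mcm9 on the other strand. The strand setting behind the counts is not known here, so reads of the pair in the shared bases cannot be told apart.

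Asf1b, the paralog tied to proliferating cells, had 30.3 CPM (control) and 22.1 CPM (SPT6 siRNA) untreated, and 23.1 and 47.0 CPM (control) and 20.9 and 25.6 CPM (SPT6 siRNA) with IFN-beta. It made up between 42.7% and 54.5% of the summed Asf1a and Asf1b counts. The SPT6 siRNA library had the lower share in each pair, by 7.31 points untreated and by 0.35 and 6.03 points with IFN-beta. These are shares of counts, not corrected for transcript length, and the Asf1a counts carry the limit from the overlap with Mcm9.

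**Figure D2:**
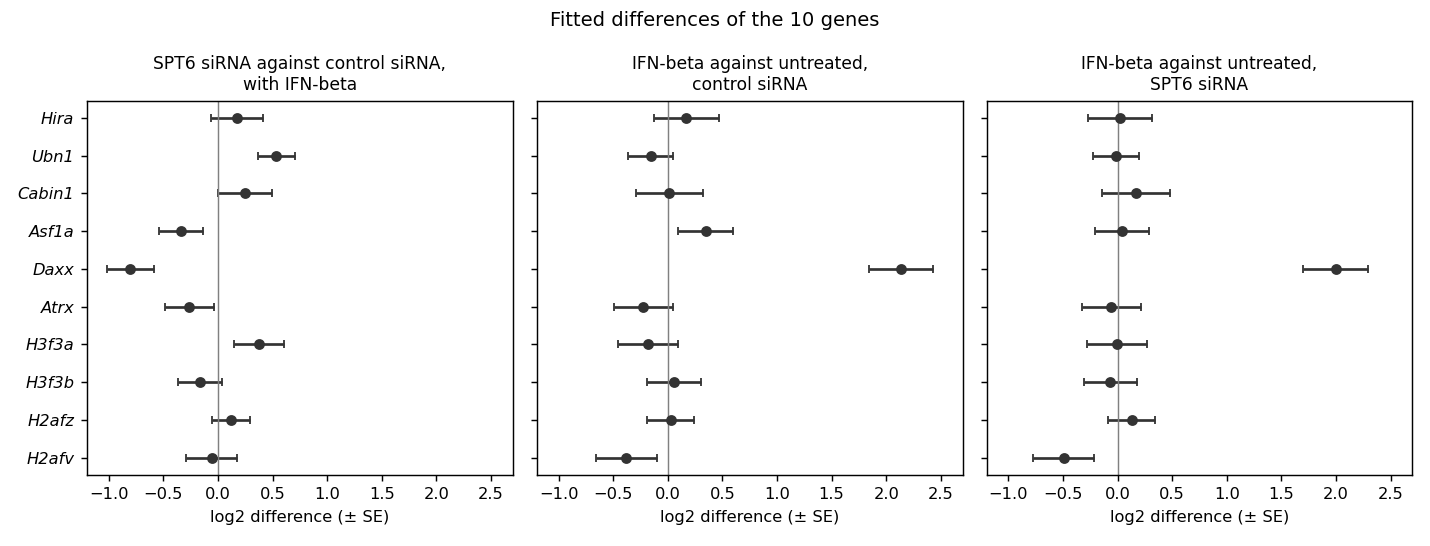
Fitted log2 differences of the 10 genes with their standard errors (horizontal bars) from edgeR over 6 libraries, for SPT6 siRNA against control siRNA with IFN-beta (left) and for IFN-beta against untreated cells with control siRNA (middle) and SPT6 siRNA (right). Daxx lies at -0.80, 2.13 and 2.0, Ubn1 at 0.53 in the left panel, and most other bars reach or lie near 0.

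H3.3 is encoded by H3f3a and H3f3b, which make the same protein. H3f3a lies on chromosome 1 from 180800832 to 180813943 (minus strand). In untreated cells the control library had 339 CPM and the SPT6 siRNA library 389.9 CPM. After IFN-beta the control libraries had 348.6 and 249.7 CPM and the SPT6 siRNA libraries 428 and 348.7 CPM. The SPT6 siRNA library was the higher one in each pair, and the lower SPT6 siRNA library with IFN-beta only just exceeded the higher control library. The fitted level was 1.30-fold higher, a log2 difference of 0.38 ± 0.23 (SE), with an adjusted p of 0.553 in edgeR's test. It was 0.65 and 0.16 without control siRNA IFN-beta replicates 1 and 2, and 0.21 without SPT6 siRNA IFN-beta replicate 1.

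H3f3b lies on chromosome 11 from 116021912 to 116027962 (minus strand). Untreated cells gave 665 CPM (control) and 646 CPM (SPT6 siRNA). IFN-beta-treated cells gave 699.6 and 684 CPM (control) and 684.3 and 550 CPM (SPT6 siRNA). Of the 6 libraries, 5 lay between 646 and 699.6 CPM and SPT6 siRNA IFN-beta replicate 2 lay below them. The log2 difference was -0.16 ± 0.20 (SE), with an adjusted p of 0.783 in edgeR's test. It was -0.34 when SPT6 siRNA IFN-beta replicate 1 was left out and -0.02 when replicate 2 was.

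The balance between the H3.3 genes differed between the siRNAs in every pair. H3f3b supplied 66.3% of the summed H3f3a and H3f3b counts in untreated control cells (exact 95% binomial interval 65.4% to 67.1%) and 62.4% with SPT6 siRNA (61.3% to 63.4%). In control cells with IFN-beta it supplied 66.7% (66.0% to 67.5%) and 73.3% (72.6% to 73.9%). In SPT6 siRNA cells with IFN-beta it supplied 61.5% (60.6% to 62.4%) and 61.2% (60.3% to 62.1%). The 3 SPT6 siRNA libraries lay between 61.2% and 62.4%, below all 3 control libraries, with differences of -3.91, -5.24 and -12.1 points in the pairs. Intervals cover counting error only, and 3 libraries against 3 cannot reach a two-sided exact permutation p below 0.1. H3f3a has 2 named pseudogenes and shares 638 exon bases with the noncoding Gm17275 and 160 with the antisense H3f3aos, so the share depends on how such reads were assigned.

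Genes of the replication-dependent H3 proteins, which carry the S-phase supply, were set beside the H3.3 genes. Together they gave 34.1% of all H3 counts in untreated control cells, and 28.5% and 36.2% in control cells with IFN-beta. In SPT6 siRNA cells they gave 27.5% untreated and 21.6% and 25.1% with IFN-beta. The share under SPT6 siRNA was thus the lower one in each pair, by 6.59, 6.84 and 11.2 points, so H3.3 genes made up a larger share of H3 counts there. All 10 tested genes of the 12 listed were below 0 in the fit with IFN-beta, 6 of them with an unadjusted p under 0.05 (against 4.31% of all genes lower) and 0 called. The lowest of them was Hist1h3b, at a log2 difference of -0.77 ± 0.19 (SE) with an adjusted p of 0.317 in edgeR's test. Proliferation markers lay lower as well: their summed level was 2533 to 3783 CPM with control siRNA and 2090 to 2233 CPM with SPT6 siRNA, and their part in the H3 shares was not tested. Near-identical copies of these genes make their single counts uncertain, and 2 of the 12 were at 0 in every library. The summed shares leave out reads that were not unique. They are shares of counts, not corrected for transcript length, so they do not give the make-up of H3 mRNA.

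**Figure D3:**
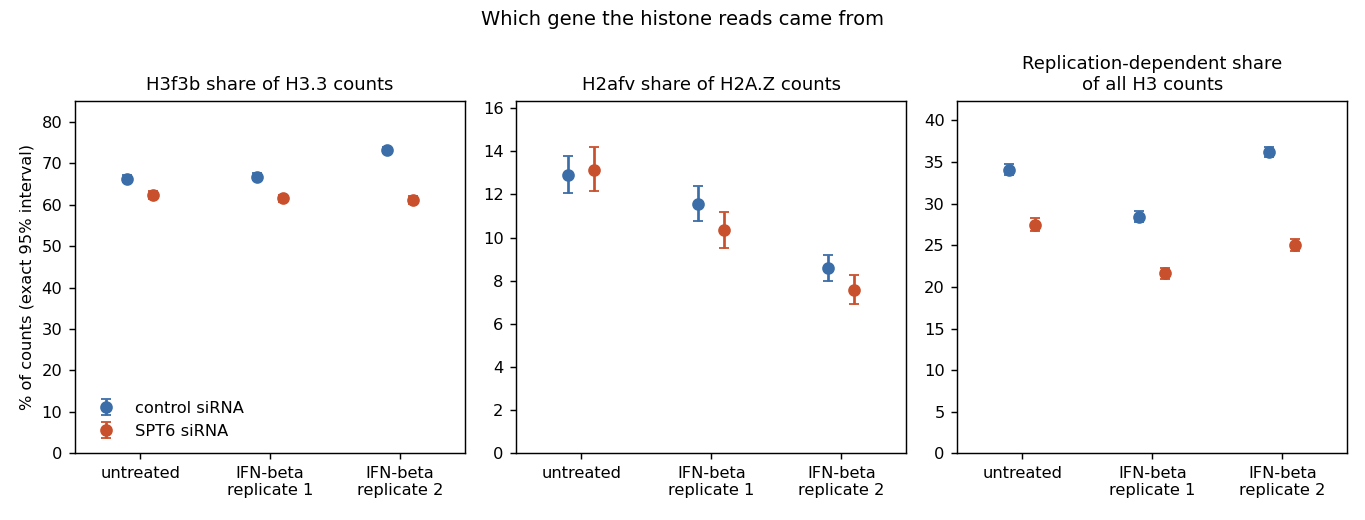
Share of counts from H3f3b among the H3.3 genes (left), from H2afv among the H2A.Z genes (middle) and from replication-dependent genes among all H3 genes (right), in percent with exact 95% binomial intervals, for each pair of control (blue) and SPT6 siRNA (red) libraries. The SPT6 siRNA share lies below the control share in each pair on the left and right, while the intervals within each H2afv pair overlap.

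H2afz and H2afv encode the H2A.Z.1 and H2A.Z.2 forms of H2A.Z. H2afz lies on chromosome 3 from 137864487 to 137866922 (plus strand). The untreated libraries held 430.4 CPM (control) and 436 CPM (SPT6 siRNA). The libraries after IFN-beta held 417 and 461 CPM (control) and 475 and 479 CPM (SPT6 siRNA). This was the steadiest of the abundant members, with all 6 libraries between 417 and 479 CPM. The SPT6 siRNA library was the higher one in each pair, by at most 0.19 in log2 CPM. Between siRNAs with IFN-beta the fitted log2 difference was 0.12 ± 0.18 (SE), with an adjusted p of 0.825 in edgeR's test.

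H2afv lies on chromosome 11 from 6427229 to 6444443 (minus strand). In untreated cells the control library had 63.7 CPM and the SPT6 siRNA library 66.0 CPM. After IFN-beta the control libraries had 54.5 and 43.3 CPM and the SPT6 siRNA libraries 54.7 and 39.3 CPM. All 4 IFN-beta libraries lay below both untreated libraries, replicate 2 further than replicate 1 with either siRNA. The log2 difference from untreated cells was -0.38 ± 0.28 (SE) with control siRNA and -0.49 ± 0.28 (SE) with SPT6 siRNA, with adjusted p-values of 0.744 and 0.886 in edgeR's test. Between siRNAs with IFN-beta the log2 difference was -0.06 ± 0.23 (SE), and scaling by library size alone turned it to 0.02.

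The H2afv share of H2A.Z counts followed the treatment and the replicate number more than the siRNA. It was 12.9% and 13.2% in the untreated pair, 11.6% and 10.3% in IFN-beta replicate 1, and 8.59% and 7.58% in IFN-beta replicate 2, with control and SPT6 siRNA respectively. The exact 95% binomial intervals of the untreated pair, 12.1% to 13.8% and 12.1% to 14.2%, overlapped. Each untreated share was higher than every IFN-beta share.

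The promoters of the H2A.Z genes are shown because the pair makes nearly the same protein from genes whose levels differ widely. The stretches lie outside annotated exons, at chr3:137864375-137864486 (plus strand) for H2afz and at chr11:6444444-6444693 (minus strand) for H2afv, from RefSeq on GRCm38.p6, with the CCAAT box, CCAAT or its reverse complement ATTGG, in capitals.
H2afz: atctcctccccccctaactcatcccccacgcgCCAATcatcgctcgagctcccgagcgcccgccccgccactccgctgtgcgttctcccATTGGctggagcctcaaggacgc
H2afv: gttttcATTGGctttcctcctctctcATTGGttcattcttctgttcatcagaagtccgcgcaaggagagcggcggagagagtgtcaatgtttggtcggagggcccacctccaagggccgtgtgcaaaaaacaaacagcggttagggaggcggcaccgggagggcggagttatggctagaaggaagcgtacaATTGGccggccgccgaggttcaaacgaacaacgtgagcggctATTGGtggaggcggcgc
Across the set, 9 of 10 genes had a CCAAT box on either strand in the 250 bases before a start, all but Hira, against 33.8% of all windows of that length. A TATA box (TATAAA) was found for H3f3b alone (1 of 10, against 12.4% of windows). A cAMP response element (TGACGTCA) was found for Ubn1 alone (1 of 10, against 1.55%). The E2F motifs TTTCCCGC and TTTGGCGC were found for none of the 10, against 0.895% and 0.417% of windows. For Asf1a, Daxx, Atrx, H3f3a and H3f3b the RefSeq starts used lie inside the gene span given above. The matches of Asf1a, H3f3a and H3f3b, the TATA box included, lie inside it too and not upstream of the gene. A gene was counted if any of its windows matched, while the background is a share of single windows. A match is a description of letters and not of a bound site.

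Per kilobase of exon H2afz, H3f3b and H3f3a stood far above the 6 chaperones, while H2afv overlapped with Daxx. In RPKM, which is CPM per kilobase of merged exon, the mean over 6 libraries was 253 for H2afz and 220.0 for H3f3b, with H2afz above H3f3b in 5 of 6 libraries. H3f3a followed at 100.1 RPKM, below H3f3b in all 6 libraries, and H2afv at 32.8 RPKM, below H3f3a in all 6. Of the chaperones, Daxx was at 20.2 RPKM (4.94 to 37.6), Ubn1 at 18.5 RPKM and Atrx at 17.1 RPKM. The Daxx mean mixes 7.85 RPKM (control) and 4.94 RPKM (SPT6 siRNA) in untreated cells with 16.9 to 37.6 RPKM with IFN-beta. H2afv exceeded Daxx in 4 libraries, and Daxx exceeded Ubn1 in 3, so no order of these neighbours held in all libraries. Asf1a at 8.22, Hira at 8.21 and Cabin1 at 7.84 RPKM had the lowest means, and their ranges overlapped. The lowest single value was that of Daxx with SPT6 siRNA in untreated cells.

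Counted together, the 10 genes showed no common direction between the siRNAs. With IFN-beta, 0 of 10 were called by edgeR (0% of all genes) or by DESeq2 (0.47% of all genes). In edgeR's test 2 of 10 had an unadjusted p under 0.05, against 11.7% of all genes. These were Ubn1, higher (1 of 10, against 7.36%), and Daxx, lower (1 of 10, against 4.31%). There were 5 below 0 (52% of all genes), and the median log2 difference was 0.03 beside -0.02 over all genes tested. The groups did not overlap for 5 of 10 genes, against 44% of all genes. Asf1a and Daxx were lower (2 of 10, against 21.3%), and Ubn1, H3f3a and H2afz were higher (3 of 10, against 22.7%). In all 3 pairs SPT6 siRNA was below control for Asf1a, Daxx, Atrx and H3f3b (4 of 10, against 28.3%) and above it for Hira, Ubn1, H3f3a and H2afz (4 of 10, against 25.8%). These shares are close enough to the background that they are no result about the set.

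Apart from Daxx, no member had an unadjusted p under 0.05 for IFN-beta against untreated cells. The 8 other than Daxx and H2afv had fitted log2 differences between -0.22 and 0.35 with control siRNA and between -0.07 and 0.17 with SPT6 siRNA, and their lowest adjusted p-values in edgeR's test were 0.740 and 0.940. IFN-beta libraries lay above the untreated library with the same siRNA in all 4 cases for Asf1a and Daxx (2 of 10, against 22.5% of all genes) and below it for H2afv (1 of 10, against 22.8%). The difference between the responses was between -0.30 and 0.17 for all 10, with 0 of 10 at an unadjusted p under 0.05 in edgeR's test, against 0.379% of all genes. The responses with control and SPT6 siRNA share no library, but each rests on a single untreated one.

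The wider circle of histone-handling genes lay mostly below 0 with SPT6 siRNA, and none of its genes was called. Of 7 other HIRA and H3.3 partners 5 were below 0 (median log2 difference -0.41), 2 with an unadjusted p under 0.05 in edgeR's test, Pml and the oncoprotein Dek (-0.57 ± 0.23, SE, and -0.25 without control siRNA IFN-beta replicate 2). Of 13 chaperones of replication-coupled assembly 12 were below 0 (median -0.40), with Mcm2 at -0.80 ± 0.34 (SE) and the large CAF-1 subunit Chaf1a at -0.73 ± 0.33 (SE), and none had an unadjusted p under 0.05. Control siRNA IFN-beta replicate 2 stood apart for both, and without it Mcm2 was at -0.28 and Chaf1a at -0.19. Without control siRNA IFN-beta replicate 1 Chaf1a was at -1.10. Of 9 chaperones of H2A and H2B 8 were below 0 in the fit (median -0.27), but this did not hold in IFN-beta replicate 1, where SPT6 siRNA was below control for 4 of 9, with a summed level of 3636 against 3505 CPM. It was below control for 8 of 9 in IFN-beta replicate 2, with 3124 against 4792 CPM, and for 8 of 9 in the untreated pair. The only one with an unadjusted p under 0.05 in edgeR's test was Anp32b (-0.63 ± 0.25, SE), at -0.96 when SPT6 siRNA IFN-beta replicate 1 was left out and -0.38 when replicate 2 was. Over all genes 52% were below 0, and 4.31% were lower with an unadjusted p under 0.05.

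Among 19 tested genes of the complexes that exchange H2A.Z, 14 were below 0 (median -0.21). The only one with an unadjusted p under 0.05 in edgeR's test was Yeats4, a subunit shared by the exchange complexes, at -0.52 ± 0.19 (SE). Anp32e, which removes H2A.Z from chromatin, was at -0.40 ± 0.22 (SE), and at -0.08 without control siRNA IFN-beta replicate 2. Of 9 other tested histone variants and their loading factors 7 were below 0 (median -0.46). The macroH2A2 gene H2afy2, at -0.91 ± 0.21 (SE), and the DNA damage variant H2afx, at -0.53 ± 0.19 (SE), had unadjusted p-values under 0.05 in edgeR's test (2 of 9, and 1 of 19 for the exchange complexes, against 4.31% of all genes lower). The centromeric H3 variant gene Cenpa was at -0.49 ± 0.21 (SE), with an adjusted p of 0.429 in edgeR's test, and at -0.25 without control siRNA IFN-beta replicate 2.

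A further list held 4 histone chaperones and elongation factors linked to transcription, Supt6 among them, and 3 were above 0. Of these, Iws1 was at -0.029 without control siRNA IFN-beta replicate 1. Spty2d1, a histone chaperone of the elongation machinery, was at 0.74 ± 0.18 (SE), with an adjusted p of 0.309 in edgeR's test, and Supt5, a pausing and elongation factor, was at 0.37 ± 0.17 (SE), or 0.23 without SPT6 siRNA IFN-beta replicate 2. Proliferation markers were all below 0 (13 of 13, median -0.59), 6 with an unadjusted p under 0.05, against 52% of all genes below 0 and 4.31% lower at that p. Mki67 was at -0.75 ± 0.22 (SE), and at -0.48 without control siRNA IFN-beta replicate 2. The lists that hold S-phase genes thus lay below 0 together with these markers, whose part in the lists' values was not tested.

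**Figure D4:**
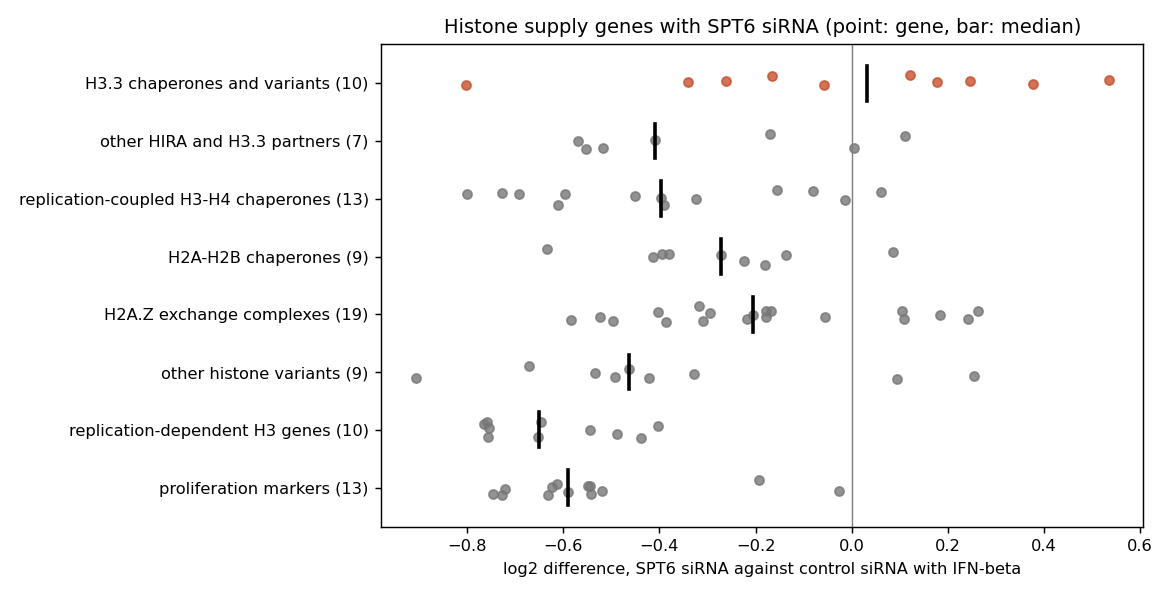
Fitted log2 difference between SPT6 and control siRNA with IFN-beta for each tested gene (points) of the 10 genes described here (red) and of 7 related lists (grey), with the number of tested genes in brackets and the median as a black bar. The 10 genes are spread around 0 (median 0.03), the replication-dependent H3 genes (median -0.65) and proliferation markers (median -0.59) lie below it.

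Several members differed between replicate numbers by as much as between siRNAs. Between IFN-beta replicates 2 and 1 the log2 CPM of H3f3a differed by -0.48 with control siRNA and -0.30 with SPT6 siRNA, and that of H2afv by -0.33 and -0.48. With both siRNAs replicate 2 was above replicate 1 for Hira and H2afz and below it for Daxx, Atrx, H3f3a, H3f3b and H2afv. What the replicate numbers stand for is not given in the labels.

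The genes whose pattern over the 6 libraries lay nearest to a member were found by the root mean square difference of centred log2 CPM among 9813 genes. For Hira they were Slc52a2 (0.040), Trmt1 (0.044) and Zbtb7a (0.045). For H3f3b they were Mettl9 (0.021), Commd1 (0.027) and Rbbp7 (0.034), and for H2afz they were Tmem69 (0.024), Abi1 (0.028) and Dnm1l (0.028). All points share the same 6 libraries, and among so many genes some lie this near to any pattern.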

How the data were processed

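Per the labels' protocols, TRIzol-extracted RNA went into NuGEN Ovation SP Ultralow libraries that were sequenced paired-end. The deposited values are whole-number counts per gene symbol, not normalised, for 24062 genes in 6 libraries. The submitters' processing notes list the builds mm10 and GRCm38 and the tools HTSeq 0.6.1p1, TopHat2 2.1.0 and DESeq2. For the counting, annotation and strand setting are not given in the sources used here. Of all reads listed, 32.9% to 38.0% were in genes, 33.8% to 37.5% in no feature and 27.9% to 31.3% not unique, and lines naming no gene were left out.

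From these counts, genes were filtered with edgeR's filterByExpr (count minimum 10, 13185 kept) and scaled by TMM in R 4.3.3. Differences came from edgeR 4.0.16 (estimateDisp, robust glmQLFit, glmQLFTest) on 4 group means over 6 libraries without a replicate block, with Benjamini-Hochberg adjustment over all genes and calls at an adjusted p under 0.05. Untreated groups had 1 library each, so the spread came from the IFN-beta groups. Each standard error is the log2 difference divided by the root of F. Log2 CPM used a prior count of 2. RPKM values divide CPM by the merged exon length in GENCODE vM21. Same-group libraries were not duplicates (chi-square per degree of freedom 41.8 and 36.9). The steps were tested on simulated counts, but the outcome is not given here and no result rests on it.

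Alternatives were DESeq2 1.42.0, limma-voom (limma 3.58.1), other size factors, plain library size, 2 other count filters, edgeR without the robust option, fits of the compared groups alone, a replicate block, and dropping each IFN-beta library in turn. Named genes were the 10, Supt6, up to 4 genes of each related list with the smallest p, and the 3 genes most like Hira, H3f3b and H2afz. The 10 genes and the lists were chosen with earlier results of these data known. Of 20 listed H2A.Z exchange genes 19 were found by symbol, and of 6 macrophage and leukocyte markers 5.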

Additional observations from a re-analysis of the deposited data

Results flagged for a closer look

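In 6 of 108 tested genes of all lists, both IFN-beta libraries with one siRNA lay on the other side of the untreated level from both libraries with the other siRNA. They were Ubn2, Nap1l4, Znhit1, Yeats4, Hist1h3c and the epithelial marker Cdh1. Of these, Yeats4 and Hist1h3c fell under the rule for named genes outside the cell type markers, and their values follow. Yeats4, a subunit of the H2A.Z exchange complexes, stood above its untreated library by 0.22 and 0.37 in log2 CPM with control siRNA and differed from it by -0.13 and -0.15 with SPT6 siRNA. The fitted difference between its IFN-beta responses was -0.44 ± 0.33 (SE), with an unadjusted p of 0.228 and an adjusted p of 1 in edgeR's test. Hist1h3c, a replication-dependent H3 gene, stood above its untreated library by 0.03 and 0.07 in log2 CPM with control siRNA and differed by -0.45 and by almost 0 with SPT6 siRNA. The fitted difference between its responses was -0.26 ± 0.36 (SE), with an unadjusted p of 0.501 and an adjusted p of 1 in edgeR's test. None of the 10 genes described met this pattern. The share of all 13185 tested genes that met it was not counted, so neither count is a result about these genes. Groups of 2 libraries are too small to test for a library that stands apart.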

How the results depend on the processing

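Over 54 single-gene results, 655 of 744 values under alternatives kept their direction and side of the threshold. A further 79 passed it where the fit reported did not, 70 of them under a replicate block, and 10 changed sign, 9 of those with a library left out. Besides the signs given in the report, H2afv came to 0.13 without control siRNA IFN-beta replicate 1 and 0.16 without SPT6 siRNA IFN-beta replicate 2, Iws1 to -0.029 and Sp100 to 0.23 without control siRNA IFN-beta replicate 1, and Sp100 to 0.029 without SPT6 siRNA IFN-beta replicate 2. H2afv was 0.023 with library size only. Leaving out a library moved Hira between -0.079 and 0.40, Cabin1 between -0.16 and 0.54, H2afv between -0.33 and 0.16, Iws1 between -0.029 and 0.19, Sp100 between -1.58 and 0.23 and the difference of the Daxx responses between -0.39 and 0.030. The IFN-beta differences of the 8 members other than Daxx and H2afv changed sign in 12 of 104 values with control siRNA and 18 of 104 with SPT6 siRNA, and 0 were called.

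Counts of called genes depended strongly on the method. Between siRNAs with IFN-beta the count of 0 became 62 with DESeq2 and 66 without a count filter, and stayed 0 with any library left out. For IFN-beta with control siRNA the count of 18 became 204 with DESeq2, 5 with limma-voom, 77 without a count filter, 8 with a stricter filter, 11 without the robust option, 34 with only the groups compared, and 16 to 52 with a library left out (52 without SPT6 siRNA IFN-beta replicate 1, 45 without replicate 2). With SPT6 siRNA the count of 6 became 12 with library size only, 129 with DESeq2, 0 with limma-voom, 46 without a count filter, 0 with a stricter filter, 3 without the robust option, 14 with only the groups compared, and 9 to 25 with a library left out. The cause was not tested.

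The labels do not say that replicate numbers pair the libraries. Deviations of same-numbered IFN-beta libraries correlated at 0.718 across 9814 genes, as a description over 2 pairs. With a replicate block the calls became 2638 between siRNAs, 957 and 545 for IFN-beta with control and SPT6 siRNA, and 4 for the difference of responses. Ubn1 (0.53, adjusted p = 0.00307) and Daxx (-0.81, adjusted p = 7.74e-07) were then called by edgeR between siRNAs, 2 of 10 against 20% of all genes. The block over 3 matched pairs called 3247 genes (24.6%), with Ubn1 at 0.48, Daxx at -0.77, Atrx at -0.33 and H3f3a at 0.33 among them. Daxx had adjusted p-values of 2.17e-26 and 5.40e-20 in edgeR for IFN-beta with control and SPT6 siRNA under the block.

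With 2 libraries a group and 1 untreated library each, differences of the size most members showed were not called in this fit. Taken over all genes, counting error was small beside the spread between IFN-beta libraries of a group, which need not hold for each member.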

Other observations

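The linker histone variant gene H1f0, which accumulates in non-dividing cells, was chosen after its values were seen. It stood at 690.2 CPM untreated with control siRNA and 479.7 CPM untreated with SPT6 siRNA, at 366 and 373 CPM with IFN-beta and control siRNA, and at 318.5 and 218 CPM with IFN-beta and SPT6 siRNA. All 4 IFN-beta libraries lay below both untreated libraries, and every SPT6 siRNA library lay below the control library of its pair. Of all genes, 22.8% had all 4 IFN-beta libraries below the untreated library with the same siRNA. SPT6 siRNA was below control in all 3 pairs for 28.3%. The log2 difference from untreated cells was -0.90 ± 0.27 (SE) with control siRNA and -0.84 ± 0.27 (SE) with SPT6 siRNA, with adjusted p-values of 0.465 and 0.768 in edgeR's test.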
